A study of Mus musculus with 10 samples.

Results

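Cytochrome P450 genes were examined in the jejunum of mice that had lost Pcyt1a, which encodes the rate-limiting enzyme of phosphatidylcholine synthesis, from the gut epithelium. The members were the genes whose array probe set carried exactly 1 gene symbol made of Cyp, a family number, a subfamily letter and a gene number, without the Cyp4a subfamily. This gave 86 genes of the 22180 measured. They were read from 90 probe sets, and where a gene had several (4 genes) the one with the highest mean was used. Not analysed here were 6 probe sets shared between a P450 and another symbol, and 12 with a P450 symbol outside this form, 6 of them Cyp4a. The members fell into 36 subfamilies, of which 6 had at least 5 members (Cyp2c, Cyp2d, Cyp4f, Cyp2j, Cyp3a and Cyp2b) and 27 had 1.

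Knockouts 1 to 5 and controls 6 to 10, as the titles number them, gave 1 array each from the jejunum of female mice aged 10 to 12 weeks. Both groups were Pcyt1a LoxP/LoxP, both received tamoxifen for 5 days, both ate a high fat diet for 4 days and both were then fasted overnight. Only the knockouts carried VilCreERT2, a Cre recombinase that tamoxifen activates and that the villin promoter restricts to epithelium. A whole piece of 3 cm was taken, so its muscle, vessels and immune cells kept Pcyt1a. The series text speaks of re-feeding where the sample labels speak of fasting, and the source labels of the controls describe intestine lacking phosphatidylcholine synthesis, against their titles and genotype. Pcyt1a itself read 7.14 to 7.80 log2 intensity in the knockouts and 9.18 to 9.55 in the controls, which fits the titles (log2 fold change -1.93, SE 0.13, limma adjusted p = 9.577e-05).

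P450 enzymes hold a heme group and use molecular oxygen to add an oxygen atom to their substrates. Most sit in the endoplasmic reticulum and take electrons from the oxidoreductase Por, while the mitochondrial ones take them from ferredoxin. Families 1 to 3 oxidise drugs, toxins and dietary chemicals, and in the small intestine they lie mainly in villus enterocytes, where they act on swallowed compounds before these reach the liver. Other members oxidise fatty acids and eicosanoids, make bile acids and steroid hormones, or activate and clear vitamin D and retinoic acid. The receptors PXR (Nr1i2), CAR (Nr1i3) and AhR (Ahr) induce many of the drug-oxidising members, and HNF4 factors support their expression in gut and liver.

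Arrays differed within the groups in ways that the genotype does not give. Paneth cell markers (6 of 9 measured, of which 0 passed limma's adjusted test and 0 had an unadjusted p under 0.05) spanned list means of 10.2 to 12.6 log2 intensity in the knockouts and 10.1 to 12.2 in the controls. Relative to the mean of the 10 arrays they were lowest on control 6 (-1.58), knockout 2 (-1.50) and control 8 (-0.744). Smooth muscle markers (7 of 7 measured) were highest on control 7 (3.08 above the mean), control 9 (1.87) and knockout 1 (0.955), and below the mean elsewhere. Hepatocyte markers (6 of 6 measured) were 1.84 above the mean on control 8, while the remaining arrays ranged from -0.385 to 0.185. Enterocyte markers (15 of 15 measured) spanned 12.6 to 12.9 in the knockouts and 12.7 to 12.9 in the controls. Of these, 1 was lower at an unadjusted limma p under 0.05, Lct (log2 fold change -0.45). At an unadjusted limma p under 0.05, the knockouts were higher for 7 of 7 measured cell cycle genes, 3 of 6 crypt stem cell markers, 4 of 5 fibroblast, 4 of 5 endothelial and 4 of 6 macrophage markers. They were lower for 4 of 7 goblet, 3 of 5 tuft and 3 of 7 enteroendocrine markers, the last with 1 called at an adjusted p under 0.05. Of all genes, 8.29% were higher and 5.56% lower at that unadjusted threshold. Among genes with a mean log2 of at least 6, 14.5% were higher and 4.44% lower. Villus tip markers (6 of 6 measured) had a median log2 fold change of -0.15 and spanned 9.43 to 9.98 in the knockouts and 9.65 to 10.1 in the controls, and 0 had an unadjusted p under 0.05. Proximal gut markers (5 of 5 measured) were highest on control 8 (0.442 above the mean), control 6 (0.388) and knockout 2 (0.242), and lowest on knockout 3 (-0.418). T lymphocyte markers (5 of 5 measured) were highest on knockout 2 (0.933), control 6 (0.743) and control 8 (0.453), and lowest on knockout 3 (-1.01). The part of these markers in the P450 values was not tested, apart from the Paneth and enterocyte covariates.

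Promoter sequence is shown for members on which the results below turn. Of the 86 members, 68 had an entry in the RefSeq promoter table (GRCm38.p6). The printed windows end at the base before the annotated start, or before the longest annotated span of the gene, so they lie upstream of the gene and outside its exons. Cyp3a11 and Cyp3a25 are drug-oxidising enzymes of the Cyp3a cluster, at chr5:145879855-145880044 and chr5:146009645-146009808, both on the minus strand. Cyp2c65 and Cyp2c66 are neighbours on the plus strand, at chr19:39060816-39061005 and chr19:39113708-39113897, and are shown because their fold changes differed. Cyp2b10, the classic CAR target, lies at chr7:25897468-25897657 and Cyp2e1, an ethanol-oxidising enzyme typical of liver, at chr7:140763629-140763818, both on the plus strand. Capitals mark an HNF4-type element (CAAAGTCCA or CAAAGGTCA), the letters TATAAA and, in Cyp2c66, the place that matches the element of Cyp2c65. In Cyp2b10 no capitals appear, since none of these letters lies in the window.
Cyp3a11: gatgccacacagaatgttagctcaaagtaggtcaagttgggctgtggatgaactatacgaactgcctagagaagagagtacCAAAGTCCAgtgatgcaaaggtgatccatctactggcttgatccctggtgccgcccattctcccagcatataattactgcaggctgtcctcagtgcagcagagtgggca
Cyp3a25: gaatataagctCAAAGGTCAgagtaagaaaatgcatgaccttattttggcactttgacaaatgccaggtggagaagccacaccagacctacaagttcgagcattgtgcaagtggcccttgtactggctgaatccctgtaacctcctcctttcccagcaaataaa
Cyp2c65: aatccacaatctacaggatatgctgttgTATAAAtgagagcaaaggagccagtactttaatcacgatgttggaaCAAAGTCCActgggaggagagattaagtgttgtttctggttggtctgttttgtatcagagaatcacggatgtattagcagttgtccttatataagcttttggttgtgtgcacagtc
Cyp2c66: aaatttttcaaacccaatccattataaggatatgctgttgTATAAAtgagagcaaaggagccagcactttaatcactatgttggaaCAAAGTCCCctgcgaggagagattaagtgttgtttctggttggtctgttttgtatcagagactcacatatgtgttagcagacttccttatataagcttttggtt
Cyp2b10: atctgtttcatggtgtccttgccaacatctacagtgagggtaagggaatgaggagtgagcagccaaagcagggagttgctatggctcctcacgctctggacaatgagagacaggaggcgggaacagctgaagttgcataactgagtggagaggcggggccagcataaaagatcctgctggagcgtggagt
Cyp2e1: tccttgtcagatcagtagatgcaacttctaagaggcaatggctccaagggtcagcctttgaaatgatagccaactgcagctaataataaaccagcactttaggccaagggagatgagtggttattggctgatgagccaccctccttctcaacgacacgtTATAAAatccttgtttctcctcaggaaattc

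Most P450 members had a negative fold change in the knockouts, and no single member passed the adjusted threshold. Limma called 0 of 86 members at an adjusted p under 0.05, against 0.0271% of all genes, and the smallest adjusted p of a member was 0.147. At an unadjusted p under 0.05, 15 members (17.4%) were lower, against 5.56% of all genes, and 1 member (1.16%) was higher, against 8.29% of all genes. With each array centred on its median, the shares over all genes were 3.86% lower and 9.95% higher, and the members counted 12 lower and 1 higher. In all, 64 of 86 members (74.4%) had a log2 fold change below 0, against 53.2% of all genes. Among the 27 members with a mean log2 of at least 6 it was 77.8%, against 42.6% of all genes that bright. For the 37 members with a mean under 5 it was 73%, near the 64.2% of all genes that dim. Of these dim members 5 (13.5%) were lower at an unadjusted p under 0.05, against 6.77% of all dim genes. The median log2 fold change was -0.13 over the members and -0.01 over all genes, and the members ranged from -1.31 to 0.45. Of the 16 members with an unadjusted p under 0.05, 9 were still under it without knockout 1, 9 with the enterocyte score as a covariate and 9 without the 3 arrays lowest in Paneth markers, and 15 without knockout 2.

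The counts rest in part on single arrays. Without knockout 2, 25 members (29.1%) were lower and 1 higher at an unadjusted p under 0.05, against 6.28% and 9.65% of all genes. Limma called 3 members there, against 2.04% of all genes. These were Cyp2c66, Cyp2b10 and Cyp2j9. With any other single array left out, limma called 0 members. Without knockout 1, 9 (10.5%) were lower and 0 higher, against 3.98% and 5.97% of all genes. With the Paneth score as a covariate, 17 (19.8%) were lower, against 6.15% of all genes. Limma called 1 member in that fit, Cyp2j9 (log2 fold change -0.75, SE 0.16, limma adjusted p = 0.0468). It called 1.32% of all genes there, so 1 of 86 members is near that share. Without the 3 arrays lowest in Paneth markers, a setting added after seeing the data, 12 (14%) were lower, against 5.74% of all genes. Limma called Cyp2c66 there (log2 fold change -1.16, SE 0.16, limma adjusted p = 0.0333), and 0.311% of all genes. In whole tissue, fewer cells of a type and less RNA per cell cannot be told apart.

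**Figure D1:**
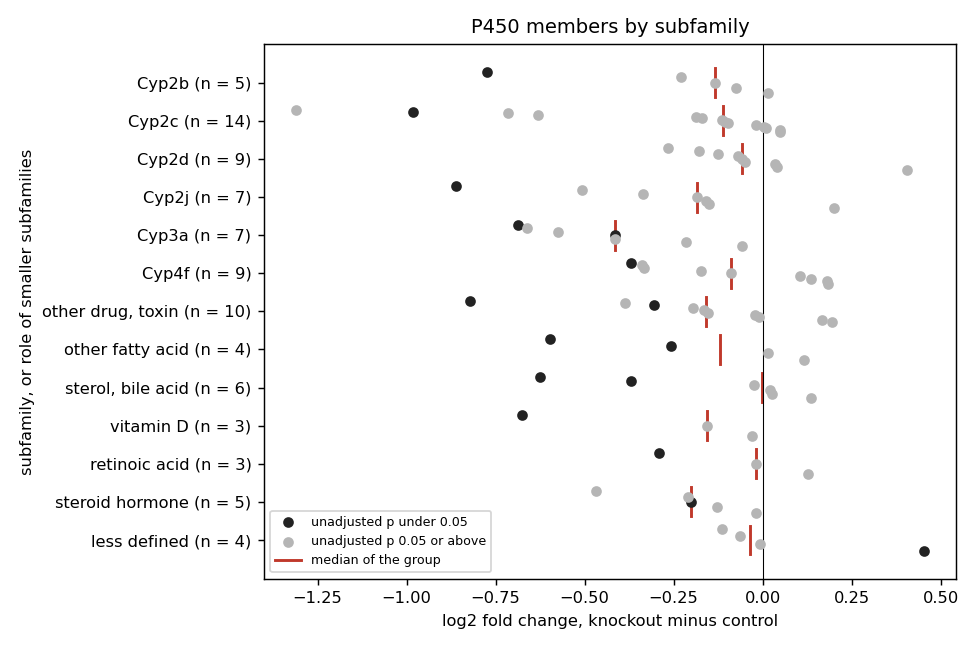
Log2 fold change (horizontal axis, knockout minus control) of the 86 members, grouped by subfamily or by role (vertical axis). Dark points have an unadjusted limma p under 0.05, grey points do not, and the red line is the median of the group. All 7 Cyp3a members lie below 0, and Cyp20a1 is the single dark point above 0.

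Of all genes, 53.2% had a log2 fold change below 0 and 5.56% were lower at an unadjusted p under 0.05. By role, the 45 drug- and toxin-oxidising members had a median log2 fold change of -0.13, with 35 (77.8%) below 0 and 6 (13.3%) lower. The 20 fatty acid and eicosanoid members had a median of -0.17, with 13 (65%) below 0 and 4 (20%) lower. Of 6 sterol and bile acid hydroxylases 2 (33.3%) were lower, and the median was -0.002. All 5 steroid hormone enzymes were below 0, from -0.47 to -0.02, of which Cyp11a1 had an unadjusted p under 0.05 on the probe set used. Of these 5, 3 had a mean log2 intensity under 5 and 0 had a mean of at least 6. Among all genes with a mean under 5, 64.2% were below 0.

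All 7 Cyp3a members, the main drug-oxidising subfamily of the gut, had a log2 fold change below 0, from -0.69 to -0.06 with a median of -0.42. Over all genes, 53.2% were below 0. At an unadjusted p under 0.05, 5.56% of all genes and 2 Cyp3a members (28.6%) were lower, Cyp3a44 and Cyp3a16. Both had a mean log2 intensity under 5, as did 4 of the 7 members, and none of the 3 with a mean of at least 6 (Cyp3a11, Cyp3a25 and Cyp3a13) had an unadjusted p under 0.05. Cyp3a44 read 3.87, 4.85, 4.58, 4.65 and 4.97 log2 intensity on knockouts 1 to 5 and 5.22, 5.04, 5.78, 5.11 and 5.20 on controls 6 to 10. Every knockout lay below every control. Groups without overlap, counted in either direction, held for 1 of 86 members (1.16%) and for 2.60% of all genes. Cyp3a44 differed by -0.69 on the log2 scale (SE 0.20, limma unadjusted p = 0.005284, adjusted p = 0.182). Cyp3a16 had a mean of 1.88 ± 0.17 (SD, n = 5) in the knockouts and 2.29 ± 0.28 (SD, n = 5) in the controls.

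Cyp3a11, the major inducible Cyp3a enzyme of the mouse and a target of PXR, read 8.52, 10.23, 8.40, 9.21 and 9.36 in the knockouts and 10.23, 9.89, 9.85, 9.33 and 9.29 in the controls. Knockouts 1 and 3 were low, while knockout 2 equalled the highest control. The log2 fold change was -0.57 (95% interval -1.26 to 0.11, limma adjusted p = 0.4474), and -0.85 without knockout 2 (limma adjusted p = 0.1103). Cyp3a25, again lowest on knockouts 1 and 3, read 7.76, 9.45, 7.46, 9.03 and 8.68 in the knockouts and 9.88, 9.09, 9.51, 8.65 and 8.56 in the controls. Its log2 fold change was -0.66 (95% interval -1.48 to 0.16), with the groups overlapping. Cyp3a13, which the gut expresses without need of induction, differed by -0.21 (95% interval -0.55 to 0.12). Whether probe sets of related Cyp3a genes share signal was not tested.

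The 14 Cyp2c members, which oxidise drugs and arachidonic acid, had a median log2 fold change of -0.11 and ranged from -1.31 to 0.05. Of these, 7 had a mean log2 intensity under 5. The 7 with a mean of at least 6 had a median of -0.63 and ranged from -1.31 to 0.004. At an unadjusted p under 0.05, 1 of the 14 members (7.14%) was lower, near the 5.56% of all genes. This was Cyp2c66. It read 6.66, 8.49, 7.00, 6.94 and 7.04 in the knockouts and 8.63, 8.27, 8.20, 8.21 and 7.73 in the controls. Knockouts 1, 3, 4 and 5 lay below every control, and knockout 2 lay among the controls. The groups differed by -0.98 (SE 0.30, limma unadjusted p = 0.006308, adjusted p = 0.1893), and without knockout 2 it was -1.30 (SE 0.16, limma adjusted p = 0.01446). Without control 6 it was -0.88 (SE 0.31, limma adjusted p = 0.3509). Without the 3 arrays highest in smooth muscle markers it was -0.82 (SE 0.38, limma unadjusted p = 0.0583).

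Its neighbour Cyp2c65 had the same mean in both groups. Cyp2c65 read 10.19, 10.89, 10.17, 10.14 and 10.26 in the knockouts and 10.46, 10.24, 10.63, 10.24 and 10.06 in the controls. Means were 10.33 ± 0.32 and 10.33 ± 0.22 (SD, n = 5 each), and the 95% interval of the difference was -0.34 to 0.34. The difference Cyp2c66 minus Cyp2c65 on the same array was -3.53, -2.40, -3.17, -3.20 and -3.22 in the knockouts and -1.83, -1.97, -2.43, -2.03 and -2.33 in the controls. Only knockout 2 reached into the range of the controls. The group means of this difference, -3.10 ± 0.42 and -2.12 ± 0.25 (SD, n = 5 each), differed by -0.99 (two-sided exact permutation test over 252 splits, p = 0.0159, smallest possible 0.00794). The pair was picked after its values were seen, so this p describes it and does not stand as independent evidence.

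**Figure D2:**
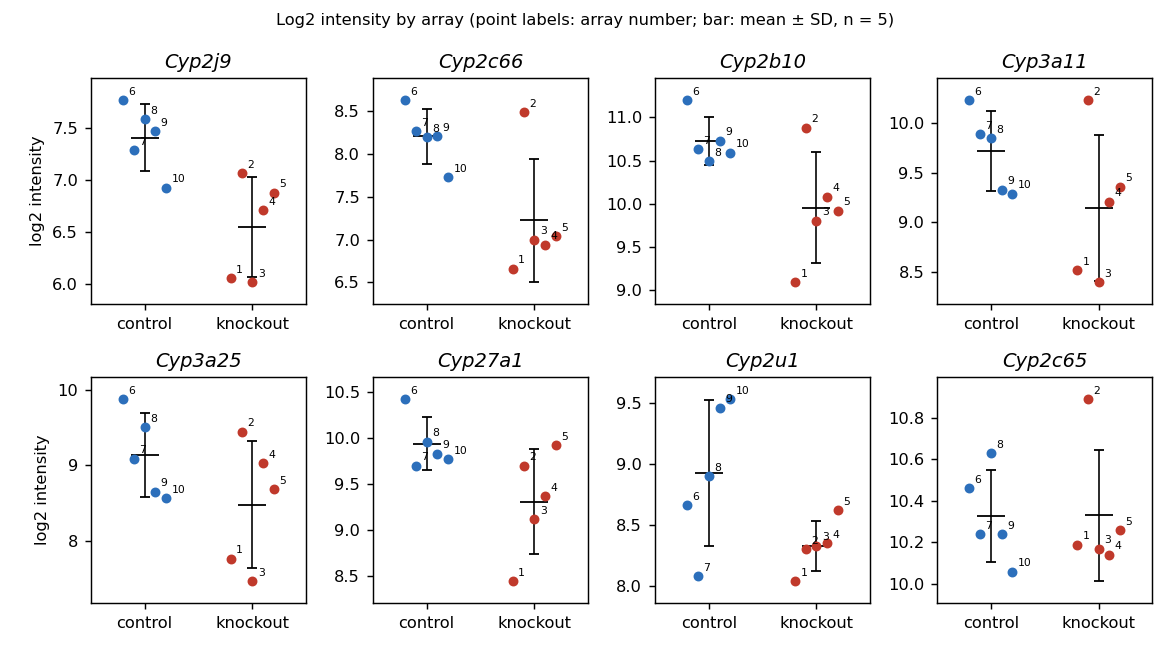
Log2 intensity (vertical axis) of 8 members in control and knockout arrays (horizontal axis), with array numbers beside the points and bars for mean ± SD (n = 5). Knockout 2 lies among or above the controls for Cyp2c66, Cyp2b10 and Cyp3a11, and Cyp2c65 has the same mean in both groups.

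Over 238 upstream bases compared without gaps, with Cyp2c66 shifted by 12, 171 bases (71.8%) of these neighbours were identical. An inserted or lost base puts the bases beyond it out of step, so this share can understate the similarity. In Cyp2c65 the element reads CAAAGTCCA, and at the same place Cyp2c66 reads CAAAGTCCC, a single substitution A9C counted from 1 at the 5′ end of the element. CAAAGTCCA lay within 250 bases before the start, on either strand, in 10.5% of the members' promoters and in 0.384% of all 32851 promoters. It was found in 5 Cyp2c genes (Cyp2c40, Cyp2c65, Cyp2c68, Cyp2c69 and Cyp2c70), in Cyp3a11 and Cyp3a16, and in Cyp8b1. CAAAGGTCA was found in Cyp3a25, Cyp3a57 and Cyp3a59, in 5.26% of the members' promoters against 0.426% of all. Cyp3a25 counts there with 2 overlapping promoters that hold the same site. By gene it was 4.41% of the members with a sequence against 0.485% of all genes. These letters and their search were chosen after hits in the members had been seen, and a match is no evidence of binding.

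The fold changes of members with and without these letters overlapped in both subfamilies. The 5 Cyp2c members with an element had log2 fold changes from -0.11 to 0.05, and the 7 others with a sequence ranged from -1.31 to 0.05. The 5 Cyp3a members with an element ranged from -0.66 to -0.06, and the 2 others were at -0.69 and -0.21. TATAAA lay in 31.6% of the members' promoters and in 12.4% of all. The AhR core GCGTG lay in 19.7% against 28.2%, the E-box CACGTG in 2.63% against 6.02%, and TTATGTAA, a site of the clock-linked factors Dbp and Hlf, in 0 against 0.819%. At so low a share over all, 0 hits in 76 member promoters cannot show that the members lack such sites. Other spellings of this site were not searched. None of the stretches in capitals overlaps another.

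Cyp2c38 and Cyp2c29 had the largest residual SDs of the 86 members, 1.67 and 1.10 on the log2 scale. Cyp2c29, a liver and gut epoxygenase, read 5.02, 8.00, 5.43, 5.88 and 5.79 in the knockouts and 7.85, 6.29, 7.58, 6.74 and 5.24 in the controls. Knockout 2, control 6 and control 8 were high and the groups overlapped. The log2 fold change was -0.72 (95% interval -1.97 to 0.54), and it was -1.21 without knockout 2, -0.44 without control 6 and -0.51 without control 8. The other Cyp2c29 probe set gave -0.23 (SE 0.09, limma unadjusted p = 0.03318), a value inside that interval.

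Cyp2c38, which lies outside the rule for named genes and was chosen after its values were seen, read 3.29, 8.06, 4.13, 6.10 and 5.59 in the knockouts and 8.26, 6.67, 8.21, 5.18 and 5.41 in the controls. Its log2 fold change was -1.31 (95% interval -3.21 to 0.58), and the same arrays, knockout 2, control 6 and control 8, were high. Those 3 arrays are the ones lowest in Paneth cell markers, and also the ones highest in proximal gut and T lymphocyte markers. With the Paneth score as a covariate Cyp2c38 was at -0.79 (SE 0.38) and Cyp2c29 at -0.38 (SE 0.28). The proximal gut and T lymphocyte lists were not used as covariates, so their part was not tested. Without these 3 arrays Cyp2c38 was at -0.98 (SE 0.65) and Cyp2c29 at -0.56 (SE 0.34). Cyp2c55, a gut arachidonic acid hydroxylase, differed by -0.19 (95% interval -0.72 to 0.35). It was at -0.43 without knockout 2 (limma unadjusted p = 0.01909, adjusted p = 0.2035) and at -0.53 without the 3 arrays (limma unadjusted p = 0.01257, adjusted p = 0.2099). Cyp2c68 differed by -0.11 (95% interval -0.50 to 0.27), by -0.25 without knockout 2 and by -0.015 without control 8.

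**Figure D3:**
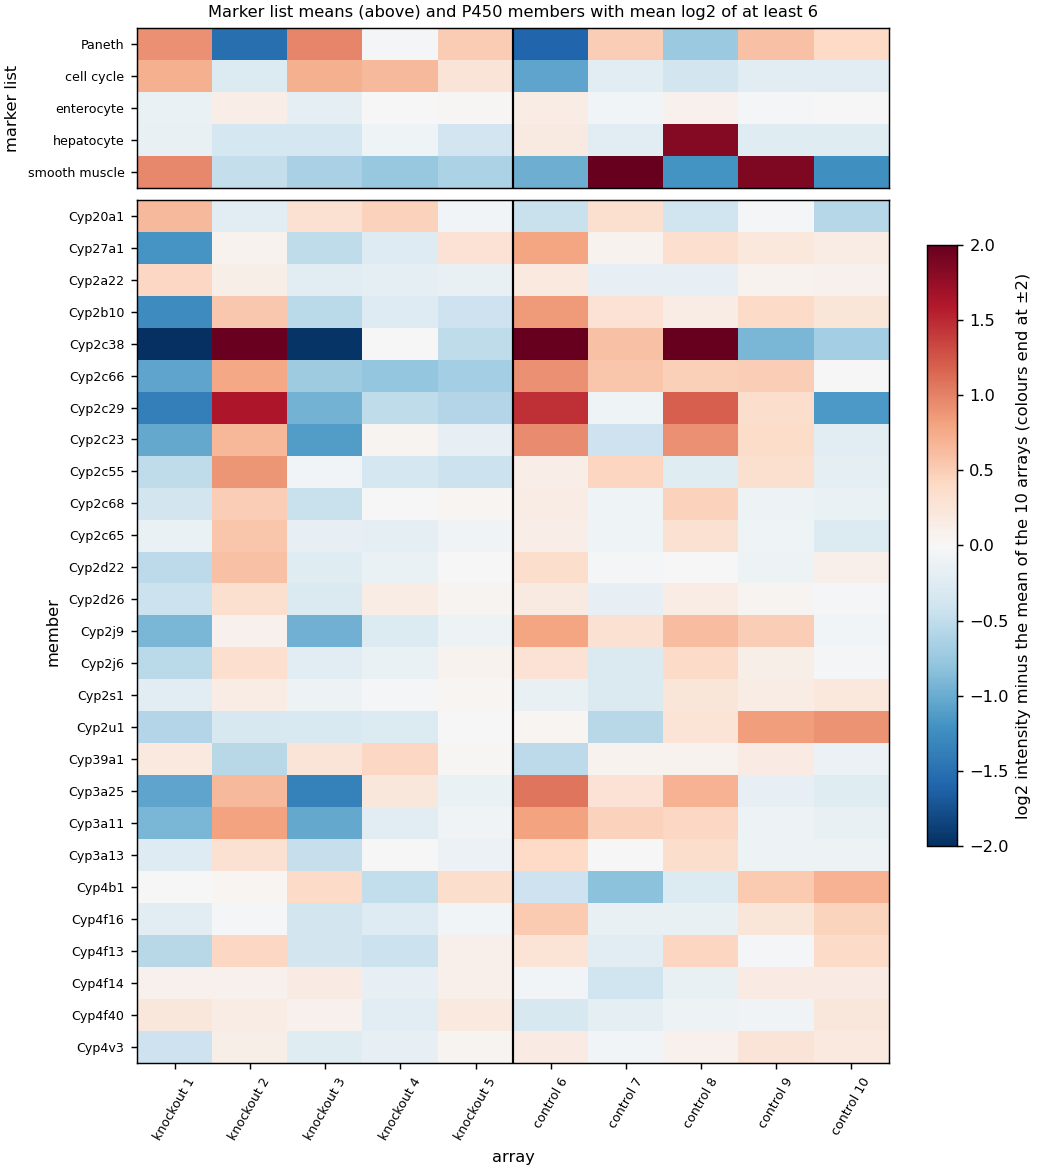
Log2 intensity minus the mean of the 10 arrays (colour, ending at ±2) for marker list means above and for the 27 members with a mean log2 intensity of at least 6 below, with arrays on the horizontal axis. Knockout 2, control 6 and control 8 are blue for Paneth markers and mostly red for the Cyp2c and Cyp3a members.

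The array pattern extended over the family. Knockout 2 was the highest of the knockouts for 38 of 86 members (44.2%), against 27.4% of all genes. Among the 27 members with a mean log2 of at least 6 this was 19 (70.4%), against 30.8% of all genes that bright. It was so for 11 of 14 Cyp2c, 4 of 7 Cyp3a and 5 of 9 Cyp4f members. For Cyp2d, Cyp2j and Cyp2b the counts were 3 of 9, 3 of 7 and 2 of 5. Control 6 was the highest control for 32 members (37.2%, against 21.8% of all genes), among them 5 of 5 Cyp2b, 6 of 9 Cyp2d and 5 of 7 Cyp3a. Control 8 was the highest control for 22 members (25.6%, against 18.9% of all genes). Among the 27 members with a mean log2 of at least 6 it was 5 (18.5%), against 22.3% of all genes that bright. By subfamily control 8 was highest for 6 of 14 Cyp2c, 1 of 7 Cyp3a, 0 of 9 Cyp2d and 0 of 5 Cyp2b. Knockout 1 was the lowest knockout for 28 members (32.6%, against 19.7% of all genes).

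Of the 5 Cyp2b members, Cyp2b10 alone (20%) had an unadjusted p under 0.05, against 13.9% of all genes in either direction. It read 9.09, 10.88, 9.80, 10.08 and 9.92 in the knockouts and 11.20, 10.63, 10.49, 10.73 and 10.59 in the controls. Knockouts 1, 3, 4 and 5 lay below every control and knockout 2 above 4 of 5. With all arrays the fold change was -0.77 (SE 0.26, limma unadjusted p = 0.01275, adjusted p = 0.2224), and -1.005 without knockout 2 (SE 0.20, limma adjusted p = 0.03725). Without control 6 it was -0.66 (SE 0.27, limma adjusted p = 0.3995). Without the 3 arrays highest in smooth muscle markers it was -0.59 (SE 0.27, limma unadjusted p = 0.05704). The other 4 Cyp2b members had a mean log2 intensity under 5 and lay between -0.23 and 0.01.

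**Figure D4:**
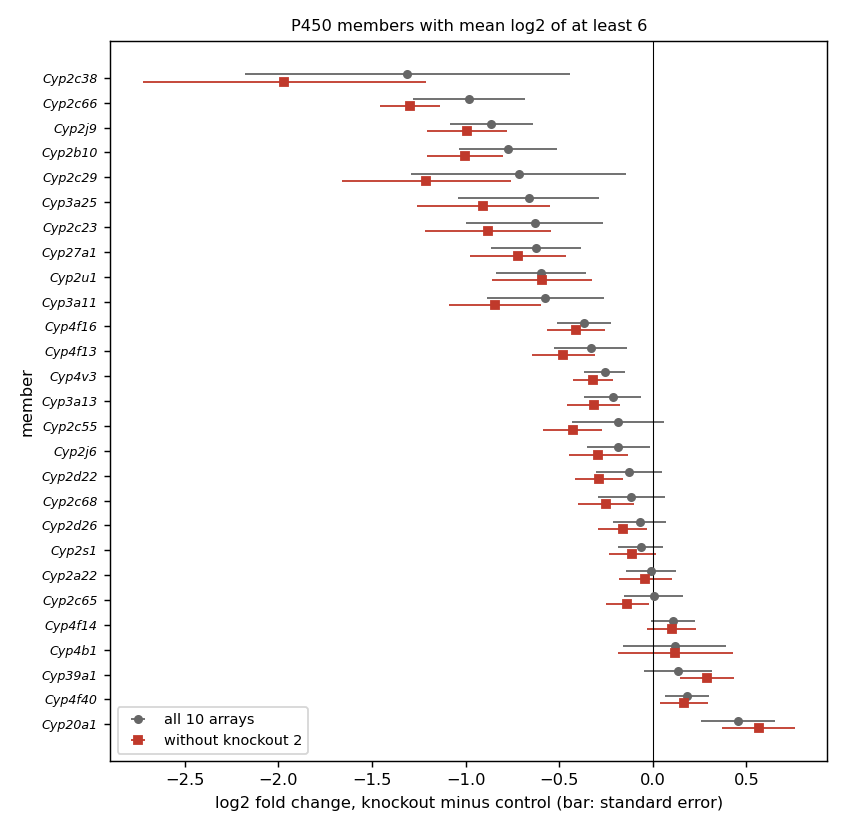
Log2 fold change (horizontal axis, knockout minus control, bars for the standard error) of the 27 members with a mean log2 intensity of at least 6 (vertical axis), from all 10 arrays (circles) and without knockout 2 (squares). Cyp2c66, Cyp2b10 and Cyp2j9 lie further below 0 with a shorter bar when knockout 2 is left out.

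Cyp2e1 had a fold change whose size depended on 1 control array. It read 5.53, 5.17, 5.52, 5.95 and 5.60 in the knockouts and 5.89, 6.13, 7.64, 5.99 and 6.23 in the controls. Control 8 stood far above the other controls, and knockout 4 lay just above control 6. The log2 fold change was -0.82 (SE 0.29, limma unadjusted p = 0.0151, adjusted p = 0.2387). Without control 8 it was -0.51 (SE 0.14, limma unadjusted p = 0.00498, adjusted p = 0.194).

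On control 8 the hepatocyte markers were high too. Albumin (Alb) read 10.41 there and 5.18 to 6.75 on the other 9 arrays, transthyretin (Ttr) 8.39 against 6.68 to 7.10, and fetuin (Ahsg) 7.32 against 4.96 to 5.54. The hepatocyte list mean spanned 5.15 to 5.45 in the knockouts and 5.30 to 7.38 in the controls. With control 8 left out, 11 members (12.8%) were lower at an unadjusted p under 0.05, against 6.05% of all genes.

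**Figure D5:**
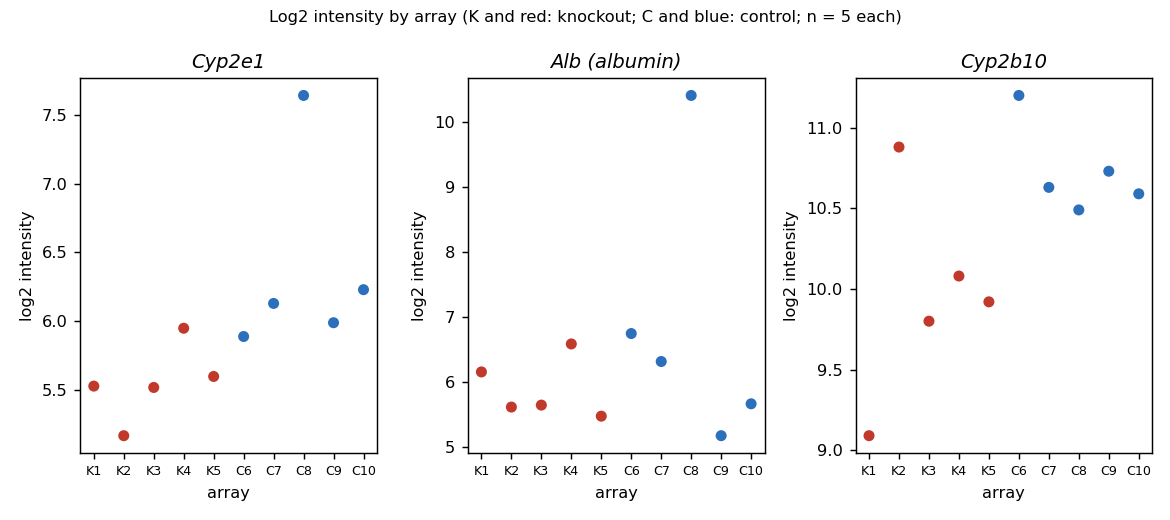
Log2 intensity (vertical axes) of Cyp2e1, albumin and Cyp2b10 on each array (horizontal axes), knockouts K1 to K5 in red and controls C6 to C10 in blue. Cyp2e1 and albumin share their peak on control 8, at 7.64 and 10.41, while Cyp2b10 does not.

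Among other drug-oxidising members, Cyp2a5, which acts on nicotine and coumarin, read 2.19 ± 0.13 in the knockouts and 2.49 ± 0.21 in the controls (SD, n = 5 each). All 4 Cyp2a members lay below 0, as did 53.2% of all genes. While 13.9% of all genes had an unadjusted p under 0.05, none of the 9 Cyp2d members did. Their median was -0.06, and Cyp2d26 and Cyp2d22, with a mean log2 intensity of at least 6, differed by -0.07 (95% interval -0.38 to 0.24) and -0.13 (95% interval -0.51 to 0.26). Cyp1a1, the standard target of AhR, read 5.20, 5.72, 4.64, 5.76 and 5.10 in the knockouts and 7.28, 4.94, 5.08, 4.92 and 5.18 in the controls. Control 6 alone was high, and the log2 fold change of -0.20 became 0.25 without it. Cyp2s1, Cyp2w1 and Cyp1b1 differed by -0.06, -0.01 and 0.19, each with a 95% interval that included 0, and Cyp1b1 was at 0.058 without knockout 2.

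Of the fatty acid and eicosanoid members, Cyp2j9, a Cyp2j enzyme of arachidonic acid oxidation, had the smallest p of the family. It read 6.06, 7.07, 6.02, 6.71 and 6.88 in the knockouts and 7.77, 7.29, 7.59, 7.47 and 6.93 in the controls. Knockout 2 alone lay above a control, control 10. Cyp2j9 differed by -0.86 (SE 0.22, limma unadjusted p = 0.002195, adjusted p = 0.147), and -0.99 without knockout 2 (SE 0.22, limma adjusted p = 0.04479). Without control 6 it was -0.77 (SE 0.23, limma adjusted p = 0.2848). Without the 3 arrays highest in smooth muscle markers it was -0.76 (SE 0.27, limma adjusted p = 0.3848). Of the 7 Cyp2j members 6 (85.7%) lay below 0, against 53.2% of all genes, and the Cyp2j median was -0.18. Cyp2j6, the major gut Cyp2j enzyme, differed by -0.18 (95% interval -0.55 to 0.18).

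Cyp2u1, which hydroxylates long-chain fatty acids, read 8.04, 8.30, 8.33, 8.35 and 8.62 in the knockouts and 8.66, 8.08, 8.90, 9.46 and 9.53 in the controls. Controls 9 and 10 were high and control 7 lay within the knockouts. Cyp2u1 differed by -0.60 (SE 0.24, limma unadjusted p = 0.02926, adjusted p = 0.2993). Cyp4f16 differed by -0.37 (SE 0.14, limma unadjusted p = 0.02468, adjusted p = 0.2821), from 7.43 ± 0.14 in the knockouts and 7.80 ± 0.32 in the controls (SD, n = 5 each).

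The Cyp4f subfamily clears leukotrienes and other hydroxylated lipids. Its 9 members were split, with 5 (55.6%) below 0, near the 53.2% of all genes. The Cyp4f median was -0.09, and it was 0.04 without control 10. Cyp4f13 differed by -0.33 (95% interval -0.76 to 0.09) and Cyp4f14, a leukotriene hydroxylase, by 0.11 (95% interval -0.15 to 0.36). Cyp4v3 read 11.79, 12.32, 11.96, 12.04 and 12.25 in the knockouts and 12.36, 12.15, 12.29, 12.46 and 12.39 in the controls. Knockouts 2 and 5 lay within the controls, and the log2 fold change was -0.26 (SE 0.11, limma unadjusted p = 0.03972, adjusted p = 0.3341). Cyp4b1 differed by 0.12 (95% interval -0.49 to 0.72).

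Among the sterol hydroxylases, Cyp27a1, the mitochondrial sterol 27-hydroxylase, read 8.45, 9.70, 9.12, 9.37 and 9.92 in the knockouts and 10.42, 9.70, 9.96, 9.83 and 9.77 in the controls. Knockout 1 was lowest and knockouts 2 and 5 lay within the controls. Cyp27a1 differed by -0.62 (SE 0.24, limma unadjusted p = 0.02489, adjusted p = 0.2832). Cyp7a1, the rate-limiting enzyme of bile acid synthesis in liver, read 3.14, 3.09, 3.14, 3.12 and 3.32 in the knockouts and 3.67, 3.20, 3.74, 3.59 and 3.46 in the controls. Only knockout 5 lay above a control, and the log2 fold change was -0.37 (SE 0.11, limma unadjusted p = 0.00493, adjusted p = 0.182). Cyp7b1 and Cyp39a1, oxysterol hydroxylases, differed by 0.02 (95% interval -0.30 to 0.34) and 0.14 (95% interval -0.26 to 0.53).

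Of the vitamin D enzymes, the 25-hydroxylase Cyp2r1 read 4.88, 6.24, 4.91, 5.30 and 5.56 in the knockouts and 6.55, 5.86, 6.72, 5.72 and 5.42 in the controls. The groups overlapped, with a log2 fold change of -0.68 (SE 0.30, limma unadjusted p = 0.04186, adjusted p = 0.3397). The activating Cyp27b1 and the clearing enzyme Cyp24a1 differed by -0.03 (95% interval -0.28 to 0.22) and -0.16 (95% interval -0.43 to 0.12). Of the retinoic acid hydroxylases, Cyp26a1, named after its values were seen, differed by -0.29 (limma unadjusted p = 0.04573, adjusted p = 0.349) and Cyp26b1 by -0.02 (95% interval -0.25 to 0.22). Cyp11a1, which starts steroid hormone synthesis from cholesterol, differed by -0.20 (limma unadjusted p = 0.04893, adjusted p = 0.3565). The other Cyp11a1 probe set gave -0.13 (SE 0.11, limma unadjusted p = 0.2545).

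Cyp20a1, a member with no settled substrate, was the one member higher at an unadjusted p under 0.05. It read 7.34, 6.48, 7.00, 7.16 and 6.64 in the knockouts and 6.25, 7.01, 6.30, 6.66 and 6.13 in the controls. Control 7 lay among the higher knockouts and knockout 2 was the lowest knockout. The log2 fold change was 0.45 (SE 0.20, limma unadjusted p = 0.04052, adjusted p = 0.3369).

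Genes that supply electrons to P450 enzymes, and genes of heme synthesis, breakdown and transport, gave no calls. Of 7 measured redox partners (of 10 listed) limma called 0 and 1 was higher at an unadjusted p under 0.05, the reductase Cyb5r1 (14.3% of the list, against 8.29% of all genes). Cyb5r1 differed by 0.36 on the log2 scale (SE 0.13, limma unadjusted p = 0.0149). Por was not analysed here. Of 11 measured heme genes (of 12) limma called 0 and 1 was higher, the heme oxygenase Hmox1, which breaks heme down. This is 9.09% of the list and near the 8.29% of all genes. Hmox1 differed by 0.25 (SE 0.11, limma unadjusted p = 0.03955), and Alas1, which starts heme synthesis, differed by 0.15 (95% interval -0.05 to 0.35).

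Of 25 measured regulators (of 27), limma called 0, and 4 were lower and 0 higher at an unadjusted p under 0.05. Those lower made up 16% of the list, against 5.56% of all genes, and 8.29% of all genes were higher. Hlf, a clock-controlled activator of P450 genes in liver, read 5.39, 6.09, 5.57, 6.39 and 6.04 in the knockouts and 6.59, 6.31, 6.96, 6.70 and 6.99 in the controls. Only knockout 4 lay above a control, and the genotypes differed by -0.81 (SE 0.19, limma adjusted p = 0.1293). Its relative Dbp differed by -1.32 (SE 0.41, limma adjusted p = 0.1993), and the clock repressor Nr1d1 by -0.38 (SE 0.16, limma adjusted p = 0.32). Tef, of the same factor family as Hlf and Dbp and outside the rule for named genes, differed by -0.06 (SE 0.10, limma unadjusted p = 0.5287). The labels give no time of collection. The fourth was the retinoic acid receptor Rarg, at -0.22 and outside the rule for named genes.

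The receptors themselves showed small differences. PXR (Nr1i2) differed by -0.21 (95% interval -0.48 to 0.07), CAR (Nr1i3) by -0.20 (95% interval -0.51 to 0.10) and Ahr by 0.13 (95% interval -0.19 to 0.45). Of 10 measured PXR and CAR targets outside the family (of 12), limma called 0 and 1 (10%) was lower at an unadjusted p under 0.05, against 5.56% of all genes. This was the carboxylesterase Ces2a, which read 9.77, 10.28, 10.19, 9.75 and 10.13 in the knockouts and 10.52, 10.72, 10.47, 10.70 and 10.71 in the controls. Every knockout lay below every control, and the difference was -0.60 (SE 0.12, limma adjusted p = 0.1113). Of 4 measured AhR targets (of 6) limma called 0, and 0 had an unadjusted p under 0.05.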

How the data were processed

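RNA from 10 jejunum samples was measured on Affymetrix arrays, 1 array per sample. The authors deposited intensities on a linear scale. The submitters' processing notes name RMA and Affymetrix Expression Console, version 1.4.1.46, and the genome build is not given in the sources used here. RMA evens out distributions between arrays, so a change shared by most genes would be reduced. Log2 values were taken and fitted with limma 3.58.1 in R 4.3.3 (lmFit, eBayes, two-sided) over 22180 genes with 1 symbol in the platform annotation, without an intensity filter. The Benjamini-Hochberg adjustment ran over these genes. Scripts were tested on simulated data. The labels do not say that samples came from separate animals, so a p-value reflects only how far these samples spread, which may be technical. The number of arrays limits the precision. Members and lists were chosen with earlier results of these data known. Named members were any called, up to 12 per direction with an unadjusted p under 0.05, any whose groups do not overlap, and a list of gut and liver P450 genes whether or not they passed, and, from the pathway lists, Por, Nr1i2, Nr1i3, Ahr, Alas1 and up to 3 genes per list and direction. Alternatives were further quantile normalisation, median centring, an intensity filter, a variance trend, array weights, the mean of all probe sets, marker scores as covariates and arrays left out. Intensities of different probe sets are not ranked against each other. For 1 pair, Cyp2c66 and Cyp2c65, the difference between probe sets on each array was compared between the groups.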

Additional observations from a re-analysis of the deposited data

Results flagged for a closer look

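In 74 groups of 5 arrays, taken over the named members, 10 had an array far from its nearest neighbour relative to the range of the group. For independent, normally distributed values chance alone gives about 1 in 20. The groups share the same 10 arrays, and some members were named for a low p. An excess over that rate was therefore not tested. On knockout 2, Cyp2c66 read 8.49 log2 intensity against 6.66 to 7.04 in the other knockouts, Cyp2c29 8.00 against 5.02 to 5.88, Cyp2c65 10.89 against 10.14 to 10.26 and Cyp1b1 5.55 against 4.75 to 4.98. On control 8, Cyp2e1 read 7.64 against 5.89 to 6.23 in the other controls and Cyp3a44 5.78 against 5.04 to 5.22. On control 6, Cyp1a1 read 7.28 against 4.92 to 5.18. On control 10, Cyp24a1 read 4.80 against 5.06 to 5.12. Among the knockouts, Cyp4f14 read 11.57 on knockout 4 against 11.82 to 11.91, and Cyp7a1 3.32 on knockout 5 against 3.09 to 3.14.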

How the results depend on the processing

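No paired analysis was possible because the groups share no replicate numbers. With arrays left out singly, 0 to 3 members were called, 9 to 25 were lower and 0 to 2 higher at an unadjusted p under 0.05, and the Cyp4f median spanned -0.13 to 0.04. Of all genes, 0.00902% to 2.04% were called, 3.98% to 6.29% were lower and 5.97% to 9.65% higher. Over the same settings the log2 fold change spanned -0.34 to 0.25 for Cyp1a1, -0.064 to 0.041 for Cyp26b1, -0.091 to 0.046 for Cyp27b1, -0.14 to 0.080 for Cyp2c65, -0.16 to 0.027 for Cyp2d26, -0.069 to 0.046 for Cyp2w1, -0.075 to 0.30 for Cyp4b1 and -0.064 to 0.084 for Cyp7b1. With the filter at a mean log2 of at least 5, the Cyp2c median was -0.63, and the Cyp2b value of -0.77 was Cyp2b10 alone. With the Paneth score as a covariate 1 member was called, against 1.32% of all genes, and Cyp1a1 was at 0.01. With the enterocyte score as a covariate 9 members were lower and 0 higher, against 5.28% and 7.55% of all genes. In that fit Cyp1a1 was at 0.17, Cyp2c68 at 0.079, Cyp2d26 at 0.077, Cyp2d22 at 0.052, Cyp27b1 at 0.01 and Cyp39a1 at -0.026. Without the 3 arrays lowest in Paneth markers 1 member was called and 0 were higher, against 0.311% and 8.26% of all genes. In that fit Cyp1a1 was at 0.16, Cyp27b1 at 0.013, Cyp4b1 at -0.071 and Cyp7b1 at -0.057. Without the 3 arrays highest in smooth muscle markers Cyp2c55 was at 0.11, Cyp2w1 at 0.051, Cyp26b1 at 0.012 and Cyp2c65 at -0.018. With array weights Cyp2c65 was at -0.042, Cyp7b1 at -0.025 and Cyp2w1 at 0.002, and with further quantile normalisation Cyp2c65 was at -0.031, Cyp26b1 at 0.014, Cyp2w1 at 0.006 and Cyp27b1 at 0.003. With median centring Cyp2w1 was at 0.018 and Cyp26b1 at 0.008. The cause was not tested in any of these cases. The filter on dim probe sets left 49 members, and how far dim probe sets stood above background was not tested.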
